A study of Arabidopsis thaliana with 12 samples.

Results

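The 10 genes described here are fermentation and hypoxia genes of Arabidopsis thaliana, taken by gene identifier from a table of 33559 genes. They are PDC1 (AT4G33070), ADH1 (AT1G77120), LDH1 (AT4G17260), SUS1 (AT5G20830), SUS4 (AT3G43190), HB1 (AT2G16060), PCO1 (AT5G15120), PCO2 (AT5G39890), TH8 (AT1G69880) and AT2G17850. They were chosen by their FPKM in untreated seedlings, where several of them were high in smeb, so their difference between smeb and Col-0 in control is given below as a description, with no test. All 10 passed the filter on low values, and all 10 had an FPKM (fragments per kilobase of transcript, scaled to the size of the library) of at least 1 in both Col-0 control libraries.

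RNA was sequenced from whole 12-day-old seedlings of the wild-type accession Col-0 and of the lines smeb-1 and smeb-2, which carry lesions in SmEb (AT2G18740), a gene for a core Sm protein of the spliceosome. Each line was analysed without salt and after 200 mM NaCl for 6 h, which gave 6 groups of 2 libraries. The salt samples carry the letters Cd in their free-text description, while their titles and treatment labels say salt, and the latter were followed here. Control plants are labelled as untreated over the same hours, while the treatment text gives a zero time point, so an effect of the hour of harvest cannot be told apart from salt. No label states that paired libraries are independent plant batches, and the p-values therefore reflect the spread among these libraries alone, which may be technical. The kind of lesion in each line is not given in the sources used here. The 2 libraries of a group are called library 0 and library 1, after the digit that ends their column names.

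When oxygen is short, plant cells regenerate NAD+ by fermentation. Pyruvate decarboxylase turns pyruvate into acetaldehyde, alcohol dehydrogenase turns that into ethanol, and lactate dehydrogenase turns pyruvate into lactate. Sucrose synthases feed this route by splitting sucrose with UDP. Group VII ethylene response factors (ERF-VII) such as RAP2.12 switch on many of these genes. Plant cysteine oxidases (PCO) use oxygen to oxidise the N-terminal cysteine of ERF-VII proteins and so mark them for degradation. Haemoglobin 1 scavenges nitric oxide, and thioredoxins of the h type reduce disulfide bonds. ADH1 is also a classical gene of dehydration and abscisic acid responses.

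The anaerobic response element, described in maize and Arabidopsis alcohol dehydrogenase promoters, is made of a GT motif (AAACCA) and a GC motif (GCCCC), and the G-box (CACGTG) is a site bound by many bZIP and bHLH factors. The 250 bases before the annotated start are printed for the 2 genes of the ethanol route and for PCO1 and PCO2, each of which held a motif there. Those of LDH1 and SUS1 held a GT motif too and are not printed. They were read from the RefSeq assembly TAIR10.1, in the direction of the gene, with motifs on either strand in capitals. PDC1 lies at chr4:15952257-15954803 on the minus strand, with its printed promoter at chr4:15954804-15955053. ADH1 lies at chr1:28975255-28977417 on the plus strand, with its printed promoter at chr1:28975005-28975254. PCO1 lies at chr5:4898641-4900734 on the plus strand, with its printed promoter at chr5:4898391-4898640. PCO2 lies at chr5:15974270-15976270 on the plus strand, with its printed promoter at chr5:15974020-15974269.
PDC1 promoter: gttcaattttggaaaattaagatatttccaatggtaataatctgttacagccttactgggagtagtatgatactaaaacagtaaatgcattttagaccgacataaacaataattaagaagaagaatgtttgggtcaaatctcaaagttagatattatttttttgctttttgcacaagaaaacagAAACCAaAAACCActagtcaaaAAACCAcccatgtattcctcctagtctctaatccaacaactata
ADH1 promoter: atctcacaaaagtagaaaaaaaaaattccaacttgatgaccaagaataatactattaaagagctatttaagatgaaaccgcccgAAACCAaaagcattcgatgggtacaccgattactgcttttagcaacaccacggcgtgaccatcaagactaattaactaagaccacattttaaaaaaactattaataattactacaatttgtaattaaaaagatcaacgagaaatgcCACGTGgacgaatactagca
PCO1 promoter: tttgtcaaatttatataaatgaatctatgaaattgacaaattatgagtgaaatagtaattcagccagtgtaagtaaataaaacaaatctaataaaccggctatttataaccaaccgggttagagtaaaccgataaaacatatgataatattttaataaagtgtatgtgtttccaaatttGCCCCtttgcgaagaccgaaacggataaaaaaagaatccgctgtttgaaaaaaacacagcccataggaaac
PCO2 promoter: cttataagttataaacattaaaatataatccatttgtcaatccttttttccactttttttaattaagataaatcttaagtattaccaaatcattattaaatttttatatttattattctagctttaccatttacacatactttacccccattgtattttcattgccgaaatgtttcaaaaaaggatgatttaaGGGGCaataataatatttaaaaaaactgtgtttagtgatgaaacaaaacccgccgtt

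The PDC1 promoter held 3 GT motifs within a short stretch, beginning 66, 59 and 44 bases before the start. ADH1 held a GT motif 166 bases and a G-box 20 bases before its start. PCO1 held a GC motif 71 bases before its start, and PCO2 held one on the opposite strand 57 bases before its start. Over a window of 250 bases before to 50 bases after the start, 7 of the 10 genes held a GT motif on either strand, beside 32% of 27438 protein-coding promoters. In SUS4, PCO1 and PCO2 it lay only after the start, beginning at bases 44, 15 and 8. The GC motif was in 2 of the 10 and in 5.75% of all promoters, and the G-box was in 1 of the 10 and in 7.68% of all promoters. HB1, TH8 and AT2G17850 held none of these letters in this window.

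The SmEb transcript checked the labels. Col-0 control had an SmEb FPKM of 58.9 and 55.1, smeb-1 control had 27.6 and 26, and smeb-2 control had 4.93 and 6.24. In salt it was 73.3 and 76.1 in Col-0, 23.2 and 22.9 in smeb-1, and 1.92 and 2.04 in smeb-2. SmEb was thus lowest in smeb-2 and intermediate in smeb-1 in both conditions. The FPKM values of a library summed to between 738721 and 848257, and the correlation of log2(FPKM + 1) between the libraries of a group ran from 0.984 in Col-0 salt to 0.994 in smeb-2 control. Total counts were not used here, but the spacing of low values put the relative depth of 11 libraries between 0.821 and 1.1 and that of smeb-2 control library 0 at 1.74. Of 11 root markers tested, 0 were called between smeb and Col-0 in control by limma (1 at an unadjusted p under 0.05). In salt 4 were higher and 4 lower, beside 12.8% and 14.9% of all genes. The summed FPKM of all 13 root markers was 85.6 to 92.6 in Col-0 control, 82.8 to 90.1 in smeb-1 control and 106 to 126 in smeb-2 control. Over the salt libraries it was 71.7 to 75.2, which hides shifts in both directions. In salt CASP1 was at 16.2 and 17.1 in Col-0 and 5.56 to 8.04 in smeb, and EXPA7 at 6.15 and 5.29 against 11.9 to 16.7. The 4 RBCS genes, which encode the small subunit of Rubisco in leaves, summed to 17399 and 17712 in Col-0 control and to 21751 to 24857 in smeb control, and in salt to 14071 and 18784 in Col-0 and 24331 to 27675 in smeb. The other 4 of the 8 shoot markers, the stomatal and trichome genes FAMA, SPCH, MUTE and GL1, summed to 19.2 and 19.4 in Col-0 control, 20.1 to 21.8 in smeb control, 20.6 and 24.3 in Col-0 salt and 20.1 to 22.8 in smeb salt. Of the 8 shoot markers, 2 were called higher in smeb in control (beside 11.6% of all genes) and 4 in salt, with 0 lower in either. No root or shoot marker was listed at 0 in a library. Whether a different share of root and leaf RNA has a part in the values below was not tested, and in whole seedlings fewer cells of a type and less RNA per cell cannot be told apart.

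In untreated seedlings, the transcripts of PDC1 and ADH1, genes for the 2 steps of ethanol fermentation, were higher in smeb than in Col-0. PDC1, the decarboxylase, had an FPKM of 3.08 and 2.83 in Col-0, 47.6 and 56.6 in smeb-1, and 29.2 and 54.3 in smeb-2. The mean of the 2 smeb lines was 15.9 times that of Col-0. The lowest smeb library was well above both Col-0 libraries, and the 2 smeb-2 libraries lay further apart than those of smeb-1. ADH1 had an FPKM of 11.6 and 10.3 in Col-0, 70.6 and 89.5 in smeb-1, and 45.6 and 86.4 in smeb-2, a ratio of 6.66. The transcript of the lactate dehydrogenase gene differed least. LDH1 had an FPKM of 17.4 and 15 in Col-0, 24 and 22.6 in smeb-1, and 22.6 and 25.5 in smeb-2, a ratio of 1.46. Without salt, Col-0 therefore held more LDH1 than PDC1 transcript per length, and smeb held more PDC1 than LDH1.

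Both sucrose synthase genes were higher in untreated smeb, SUS4 by more than SUS1. SUS4 had an FPKM of 5.37 and 5.21 in Col-0, 28.1 and 35.7 in smeb-1, and 18.4 and 35.4 in smeb-2, and its ratio was 5.55. SUS1 had an FPKM of 17.8 and 18.3 in Col-0, 39.4 and 45.4 in smeb-1, and 26.6 and 40.9 in smeb-2, and its ratio was 2.11. The coding sequences of SUS1 and SUS4 were 84.5% identical over their alignment, with a longest identical run of 38 bases. A read that lies within such a run could be assigned to either copy. Whether this bears on the size of their unequal ratios was not tested.

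Transcripts of the oxygen-sensing enzymes PCO1 and PCO2 and of the haemoglobin HB1 were higher as well. HB1 had an FPKM of 12.3 and 10.7 in Col-0, 62.5 and 87.8 in smeb-1, and 38.8 and 75.3 in smeb-2, a ratio of 5.73. PCO1 had an FPKM of 3.38 and 2.59 in Col-0, 11.8 and 12 in smeb-1, and 7.73 and 12.5 in smeb-2, a ratio of 3.68. PCO2 had an FPKM of 2.69 and 2.52 in Col-0, 14.1 and 16.9 in smeb-1, and 10.8 and 16.8 in smeb-2, a ratio of 5.63. In all 3 genes the library nearest to Col-0 was smeb-2 control library 0. PCO1 and PCO2 share 69.5% of their aligned coding bases, with a longest identical run of 14 bases.

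The remaining genes are a thioredoxin and a protein of the rhodanese family. TH8 had an FPKM of 2.43 and 2.72 in Col-0, 22.9 and 29.9 in smeb-1, and 18.1 and 19 in smeb-2, a ratio of 8.74. AT2G17850, annotated by RefSeq in the rhodanese and cell cycle control phosphatase superfamily, had an FPKM of 1.23 and 2.16 in Col-0, 22.3 and 24.9 in smeb-1, and 16.5 and 24.1 in smeb-2, a ratio of 13. AT2G17850 thus stood second to PDC1 in its ratio.

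All 4 smeb control libraries were above both Col-0 control libraries for each of the 10 genes, which is true of 24% of all genes tested and follows from how the genes were chosen. The median log2 difference of FPKM + 1 over the 10 genes was 2.29, beside -0.01 over all 20251 genes tested.

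**Figure D1:**
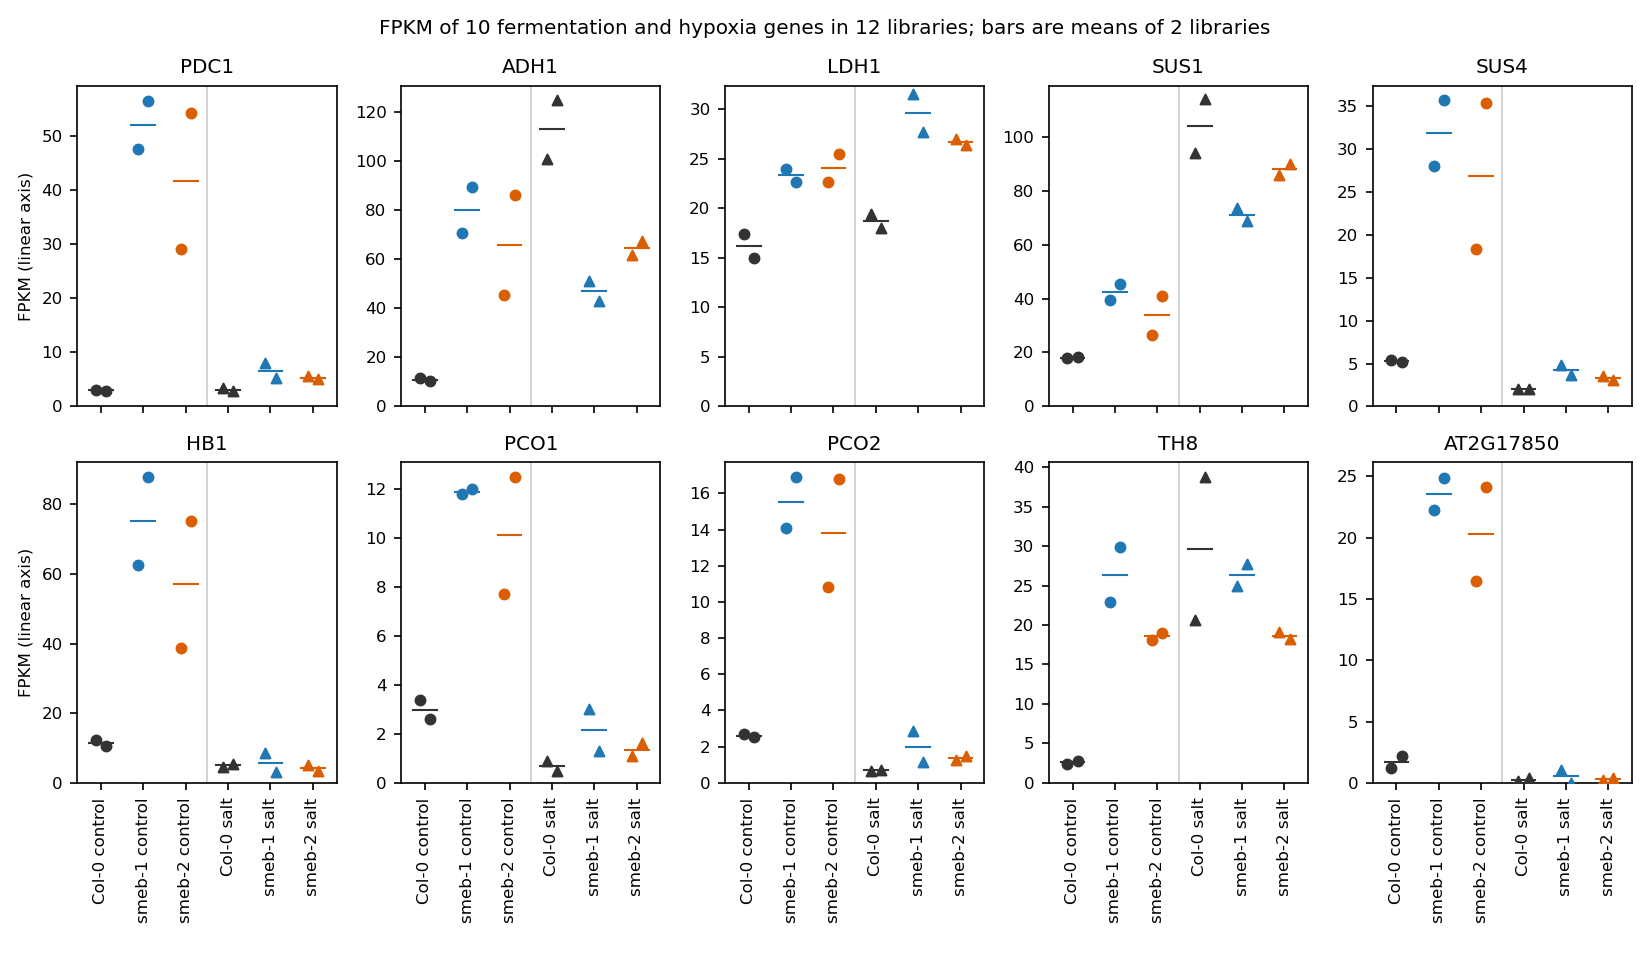
FPKM on a linear axis for each of the 10 genes in 12 libraries, with circles for control, triangles for salt and a bar at the mean of the 2 libraries of a group. The smeb control libraries are above the Col-0 control libraries in every panel, with PDC1 at 29.2 to 56.6 in smeb against 2.83 and 3.08 in Col-0, while in salt ADH1 is at 101 and 125 in Col-0 and at 43 to 67.6 in smeb.

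The spread between the libraries of a group was shared by the genes. In smeb-2 control, library 1 was above library 0 for 10 of the 10 genes, with a median log2 difference of 0.61, whereas 56.4% of all genes were higher in library 1. Library 1 was above library 0 for 9 of the 10 genes in smeb-1 control, with a median of 0.25. In smeb-1 salt the order was the other way round, with library 0 higher for 9 of the 10 genes and a median of -0.43. The Col-0 pairs and the smeb-2 salt pair were mixed, with 3, 6 and 5 of the 10 genes higher in library 1 of Col-0 control, Col-0 salt and smeb-2 salt. The library with the deepest estimated sequencing, smeb-2 control library 0, was also the lowest of the smeb control libraries for the genes other than LDH1, which tied with smeb-1 library 1 at 22.6. A part of depth in this was not tested. Without it the smeb to Col-0 ratios in control were larger for all 10 genes, at 17.9 for PDC1, 14 for AT2G17850, 9.3 for TH8, 7.5 for ADH1 and 1.48 for LDH1.

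After salt, LDH1, PDC1 and SUS4 were higher in smeb than in Col-0, ADH1 was lower, and the other 6 genes did not pass the test. The FPKM ratio of smeb to Col-0 was 2.57 for PCO1, 2.45 for PCO2, 1.93 for PDC1 and 1.87 for SUS4, and for ADH1 Col-0 was 2.02 times smeb. The control libraries by which the genes were chosen enter this comparison only through the shared estimate of spread. The fit (limma on log2(FPKM + 1), with Benjamini-Hochberg adjustment over all 20251 genes and a threshold of 0.05) called 3 of the 10 genes higher and 1 lower, beside 12.8% of all genes higher and 14.9% lower. At an unadjusted p under 0.05 the count was 7 of the 10, but the share of all genes at that level was not computed. That count is therefore not read as a result about the 10 genes. The count of adjusted calls is close to the background of 27.7% in either direction. The median log2 difference was 0.34 over the 10 genes and -0.03 over all genes.

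LDH1 was higher in salt-treated smeb in both lines. Its FPKM was 19.4 and 18 in Col-0, 31.5 and 27.7 in smeb-1, and 27 and 26.4 in smeb-2, which gave a log2 difference of 0.56 ± 0.0823 (SE, limma adjusted p = 0.00154). Its 4 smeb libraries did not overlap with Col-0, and the call was kept in each of 18 alternative settings. LDH1 therefore differed from Col-0 by a ratio of 1.5 in salt beside 1.46 in control.

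PDC1 remained above Col-0 in salt, at a fraction of its control level. Its FPKM was 3.36 and 2.82 in Col-0, 8 and 5.22 in smeb-1, and 5.61 and 5.07 in smeb-2, which gave a log2 difference of 0.75 ± 0.218 (SE, limma adjusted p = 0.0297). The groups did not overlap, but the call was lost without Col-0 salt library 1 (adjusted p = 0.152), smeb-1 salt library 0 (0.0723), smeb-2 salt library 0 (0.073) or smeb-2 salt library 1 (0.0532). SUS4 had an FPKM of 2.04 and 2.01 in Col-0, 4.86 and 3.68 in smeb-1, and 3.55 and 3.05 in smeb-2, which gave a log2 difference of 0.65 ± 0.211 (SE, limma adjusted p = 0.0457). The SUS4 libraries did not overlap either, while its call was lost in 12 of 18 alternatives and reached an adjusted p of 0.156 without Col-0 salt library 1.

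ADH1 was below Col-0 after salt, the opposite order from control. Its FPKM was 101 and 125 in Col-0, 51.3 and 43 in smeb-1, and 61.7 and 67.6 in smeb-2, for a log2 difference of -1.01 ± 0.214 (SE, limma adjusted p = 0.00837). The highest smeb library stayed below the lower Col-0 library, and the call was lost in 1 of 18 alternatives, without Col-0 salt library 1 (-0.86, adjusted p = 0.063). SUS1 showed the same order without a call, at 94 and 114 in Col-0, 73.4 and 68.8 in smeb-1, and 85.8 and 89.9 in smeb-2, with a log2 difference of -0.39 ± 0.144 (SE, limma adjusted p = 0.0707). SUS1 passed the threshold without Col-0 salt library 0 (0.037). It also passed without smeb-2 control library 0 (0.0166) or library 1 (0.0167), which bear on it only through the shared estimate of spread.

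The other 5 genes were not called in salt. PCO1 was at 0.872 and 0.49 in Col-0, 3 and 1.28 in smeb-1, and 1.1 and 1.62 in smeb-2, with a log2 difference of 0.67 (95% interval 0.14 to 1.20, limma adjusted p = 0.0604), and it passed without smeb-1 salt library 1 (0.88, adjusted p = 0.0193). PCO2 was at 0.645 and 0.731 in Col-0, 2.84 and 1.13 in smeb-1, and 1.27 and 1.5 in smeb-2, with a log2 difference of 0.63 (95% interval 0.13 to 1.13, adjusted p = 0.0608), and it too passed without smeb-1 salt library 1 (0.84, adjusted p = 0.0115). With a pseudocount of 0.1 in place of 1, PCO1 (1.19, adjusted p = 0.0292) and PCO2 (1.09, adjusted p = 0.0253) passed the threshold. HB1, at 4.52 and 5.53 in Col-0 and 3.11 to 8.49 in smeb, overlapped between the groups (-0.08, 95% interval -0.83 to 0.68). TH8 overlapped too, since the 2 Col-0 salt libraries, at 20.6 and 38.8, lay on either side of smeb-1 at 25 and 27.7, with smeb-2 at 19.1 and 18.2 (-0.34, 95% interval -0.78 to 0.10). The TH8 value rests on the Col-0 pair, since it was -0.78 (adjusted p = 0.00121, lower) without Col-0 salt library 0 and 0.10 (adjusted p = 0.64) without library 1. AT2G17850 was near the lower limit everywhere, at 0.161 and 0.364 in Col-0, 1.05 and a listed 0 in smeb-1, and 0.2 and 0.399 in smeb-2 (0.11, 95% interval -0.49 to 0.71). Counted by libraries, 5 of the 10 genes had all 4 smeb libraries above both Col-0 libraries (18% of all genes) and 2 had all below (22.5%).

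The lines were also set against Col-0 one at a time. In smeb-1, PDC1 (0.88), LDH1 (0.63), SUS4 (0.79) and PCO1 (0.86) were called higher and ADH1 (-1.24) and SUS1 (-0.54) lower by limma, 4 and 2 of the 10 beside 12.4% and 15.1% of all genes (27.6% in either direction). Of these, SUS1, SUS4 and PCO1 had adjusted p-values of 0.0382, 0.0376 and 0.0437, and each was lost without 7 or more of the libraries taken singly, among them Col-0 salt library 1 (0.183, 0.109 and 0.183). PDC1 was lost without Col-0 salt library 1 (0.117) or smeb-1 salt library 0 (0.176). In smeb-2, 1 gene was called, LDH1 (0.49, adjusted p = 0.011), beside 7.66% of all genes called higher and 6.08% lower (13.7% in either direction), and it was lost without either smeb-2 salt library (0.0729 and 0.0561). ADH1 in smeb-2 was at -0.79 ± 0.247 (SE, limma adjusted p = 0.0615), and it passed without Col-0 salt library 0 (0.037) or either smeb-2 control library (0.0153 and 0.0155). PDC1 in smeb-2 likewise passed without smeb-2 control library 0 or 1 (0.0468 and 0.0472), and TH8 passed as lower without Col-0 salt library 0 (-1.02, adjusted p = 0.000828). In smeb-1, without that library, TH8 was at -0.54 (adjusted p = 0.0115), and PCO2 passed without smeb-1 salt library 1 (1.19, adjusted p = 0.0119) or either smeb-2 control library (0.046 and 0.0464).

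**Figure D2:**
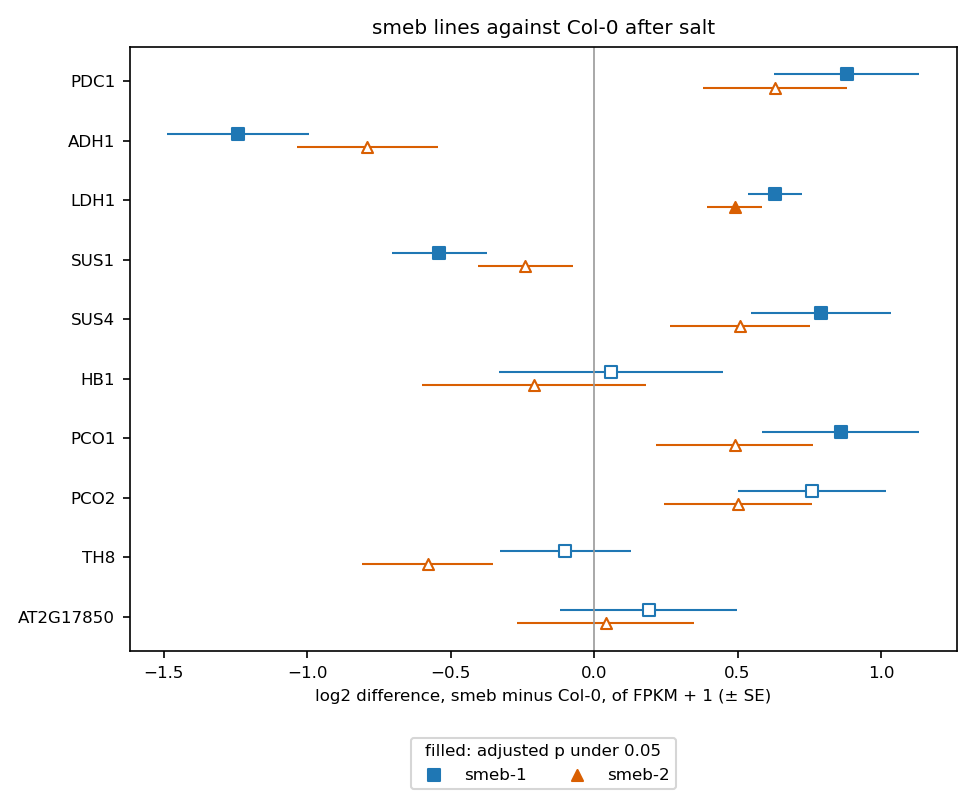
Log2 difference of FPKM + 1 between each smeb line and Col-0 after salt, with bars of 1 SE and filled symbols where the adjusted p was under 0.05 (n = 2 libraries a group). LDH1 is above 0 in both lines (0.63 and 0.49), ADH1 is below 0 in both (-1.24 and -0.79, the latter not called), and HB1 and AT2G17850 lie near 0.

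A direct comparison of the mutant lines after salt called none of the 10 genes (limma, 0 of 10, beside 0.286% of all genes, with 0 of 10 at an unadjusted p under 0.05). This does not show that the lines were alike. In salt the smeb-2 minus smeb-1 difference was -0.24 for PDC1 (95% interval -0.80 to 0.32), 0.45 for ADH1 (± 0.247, SE), 0.30 for SUS1 (-0.07 to 0.67) and -0.48 for TH8 (-0.99 to 0.03). In control, where the libraries are those by which the genes were chosen, the difference is described with no test, and it was -0.37 for PDC1, -0.45 for HB1 and -0.48 for TH8. The transcript of SmEb itself differed between the lines in every library, as given above.

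Salt in wild-type seedlings divided the genes. In Col-0, ADH1, SUS1 and TH8 rose, SUS4, HB1, PCO1, PCO2 and AT2G17850 fell, and PDC1 and LDH1 passed in neither direction. These are 3 and 5 of the 10 genes, beside 34.1% of all genes that rose and 27.7% that fell. The Col-0 control libraries that enter this comparison were also the reference by which the genes were chosen. A low value in them favours both the choice and a rise with salt. The p-values of the rises below are therefore not free of the choice.

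The rises were large. ADH1 went from 11.6 and 10.3 to 101 and 125 FPKM, a ratio of 10.3 and a log2 change of 3.25 ± 0.247 (SE, limma adjusted p = 2.67e-06). TH8 went from 2.43 and 2.72 to 20.6 and 38.8, a ratio of 11.5 and a log2 change of 3.04 ± 0.229 (adjusted p = 2.47e-06). SUS1 went from 17.8 and 18.3 to 94 and 114, a ratio of 5.77 and a log2 change of 2.46 ± 0.166 (adjusted p = 1.21e-06). In these 3 genes the salt and control libraries were far apart, although the 2 salt libraries of TH8 differed by more than those of ADH1 and SUS1 on the log scale. PDC1, the step before ADH1, stayed at 3.36 and 2.82 (0.04, 95% interval -0.52 to 0.61), and LDH1 stayed at 19.4 and 18 (0.20, 95% interval -0.01 to 0.41). LDH1 passed without Col-0 control library 0 (0.30, adjusted p = 0.0445).

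The falls in Col-0 lay between -1.06 and -1.25 on the log2 scale. SUS4 fell from 5.37 and 5.21 to 2.04 and 2.01 FPKM (-1.06 ± 0.244, SE, limma adjusted p = 0.00375). PCO1 fell from 3.38 and 2.59 to 0.872 and 0.49 (-1.25 ± 0.274, adjusted p = 0.00287) and PCO2 from 2.69 and 2.52 to 0.645 and 0.731 (-1.09 ± 0.258, adjusted p = 0.00425). AT2G17850 fell from 1.23 and 2.16 to 0.161 and 0.364 (-1.08 ± 0.309, adjusted p = 0.0124). At these low levels the added 1 shrinks the log2 change, and the FPKM ratio of control to salt was 4.38 for PCO1, 3.78 for PCO2 and 6.45 for AT2G17850. HB1 fell from 12.3 and 10.7 to 4.52 and 5.53 (-1.06 ± 0.39, adjusted p = 0.0373), and its call was lost without any 1 of the 4 Col-0 libraries (0.137, 0.0845, 0.118 and 0.0595). The 2 sucrose synthase genes thus moved in opposite directions with salt in the wild type.

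In the smeb lines the salt libraries were below the control libraries for most of the genes. These changes start from the smeb control libraries by which the genes were chosen, so they are described with no test, and a fall is favoured by the choice. PDC1 was at 47.6 and 56.6 FPKM in smeb-1 control and at 8 and 5.22 in smeb-1 salt, a log2 change of -2.82. In smeb-2 it was at 29.2 and 54.3 in control and at 5.61 and 5.07 in salt, a log2 change of -2.69. HB1 was at -3.59 and -3.41 in smeb-1 and smeb-2, and AT2G17850 at -4.10 and -4.01, which were the lowest values on the log2 scale. SUS4 (-2.64 and -2.63), PCO1 (-2.09 and -2.21) and PCO2 (-2.52 and -2.60) were negative in both lines, as they were in Col-0.

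Of the genes that rose with salt in Col-0, SUS1 was the one with higher salt than control libraries in both smeb lines. It was at 39.4 and 45.4 FPKM in smeb-1 control and at 73.4 and 68.8 in smeb-1 salt (0.74 on the log2 scale), and at 26.6 and 40.9 against 85.8 and 89.9 in smeb-2 (1.38). ADH1 was lower in both salt libraries of smeb-1 than in its controls (-0.75). In smeb-2 its salt libraries, at 61.7 and 67.6, lay between the control libraries, at 45.6 and 86.4 (0.04), and the value ran from -0.41 without smeb-2 control library 0 to 0.49 without smeb-2 control library 1. TH8 was at 0.01 in smeb-1 and 0.00 in smeb-2, and its sign flips with the scaling in both lines. LDH1 was at 0.33 in smeb-1 and 0.15 in smeb-2. The smeb minus Col-0 difference in salt response was negative for 9 of the 10 genes, at -3.60 for ADH1, -3.03 for TH8, -2.98 for AT2G17850 and -2.80 for PDC1, and 0.04 for LDH1. It rests on the same control libraries and is likewise a description.

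**Figure D3:**
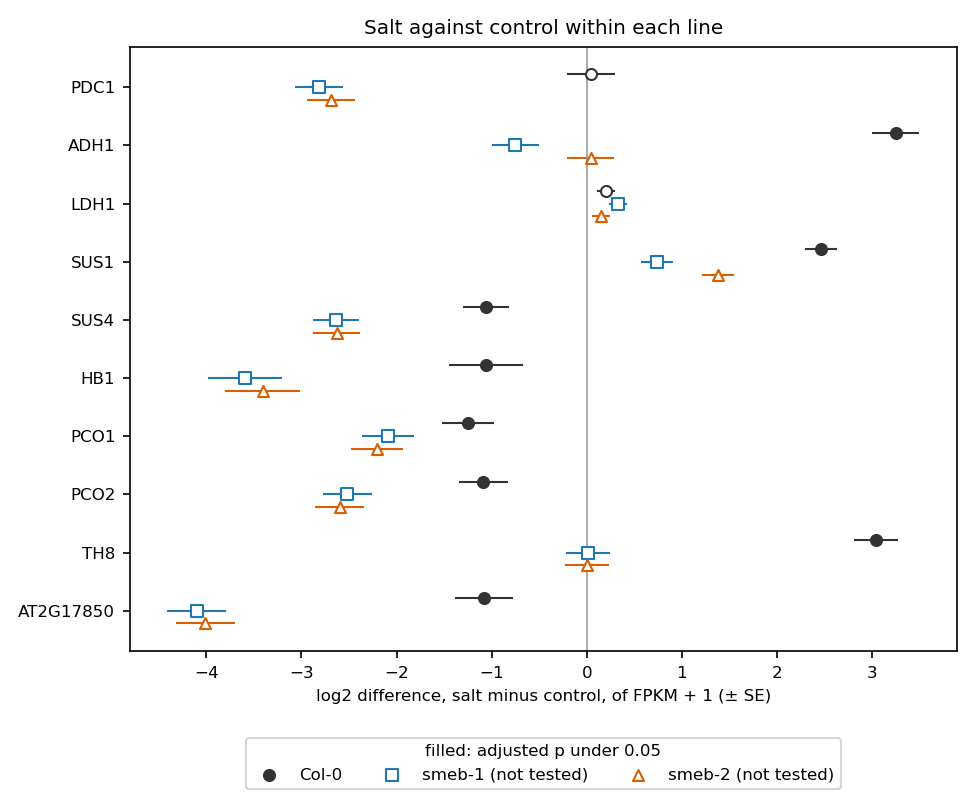
Log2 change of FPKM + 1 from control to salt in each line, with bars of 1 SE (n = 2 libraries a group). Symbols of Col-0 are filled where the adjusted p was under 0.05, and those of the smeb lines are open because they are described with no test. ADH1, SUS1 and TH8 are high in Col-0 at 3.25, 2.46 and 3.04, while PDC1 is at 0.04 in Col-0 and at -2.82 and -2.69 in smeb-1 and smeb-2.

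Among relatives of the 10 genes, PDC2, SUS3, the haemoglobins HB2 and GLB3 and 3 further plant cysteine oxidases were not called between smeb and Col-0 in control, while SUS6 and the thioredoxins TRXh3 and TH9 were, as given with the lists. PDC2, another pyruvate decarboxylase gene, was at 43.3 and 40.6 FPKM in Col-0 control and at 40.3 to 53.5 in smeb control (log2 difference 0.16 ± 0.0921, SE, limma adjusted p = 0.24). In Col-0 control PDC2 was thus more abundant per length than PDC1, whereas PDC1 reached a similar FPKM in smeb control. After salt PDC2 was lower in smeb (-0.34, adjusted p = 0.0223). SUS3, another sucrose synthase, was at 7.05 and 6.38 in Col-0 control and 5.93 to 7.01 in smeb control (-0.06, adjusted p = 0.609). SUS2 was below the filter, at 0.416 to 0.851 over all libraries. The haemoglobins HB2 (0.26, adjusted p = 0.13) and GLB3 (0.02, adjusted p = 0.938) were not called in control. Of the 3 further plant cysteine oxidases, PCO3 (0.19), PCO4 (-0.09) and PCO5 (-0.07) were not called in control, with adjusted p-values of 0.287, 0.535 and 0.682, nor in salt.

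The rest of the pathway was read from 6 lists of genes that hold none of the 10. These lists were written with earlier results of these data known, so their counts are not independent evidence of a direction. Over the 6 lists, 35 of 99 genes tested were higher and 8 lower in smeb control (limma, beside 11.6% and 13% of all genes), and most of the higher ones were in a single list. That list holds 33 other genes known to be induced by hypoxia. Of these, 23 were higher and 2 lower in smeb control, with a median log2 difference of 1.28 beside -0.01 over all genes. Among the higher ones, AT2G34390, AT5G10040 and AT3G29970 reached an FPKM of 1 in smeb control alone. The filter thus kept them through the group where they were high. With no filter, 22 genes of the list were higher and 2 lower. Leaving out 1 library at a time gave 20 to 25 higher, and 21 without the deeply sequenced smeb-2 control library 0. The 2 lower genes, AT3G23170 (-0.48) and RBOHD (-0.28), the gene for an NADPH oxidase, are named after their values were seen.

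Named examples show the size in single libraries. AT4G39675 was at 14.6 and 14 FPKM in Col-0 control and at 63.2 to 107 in smeb control (2.48 ± 0.173, SE, limma adjusted p = 2.31e-05). ACO1 (AT2G19590), which encodes an ACC oxidase, the last enzyme of ethylene synthesis, was at 5.91 and 5.18 in Col-0 control and at 16.8 to 29.8 in smeb control (1.94 ± 0.2, adjusted p = 0.000162). AT3G27220 was at 7.32 and 6.11 against 16.3 to 25 (1.53 ± 0.161, adjusted p = 0.000179). In each of these, all smeb libraries were above both Col-0 libraries, and the lowest was smeb-2 control library 0, as for most of the 10 genes.

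In salt the hypoxia-induced list was near the background, with 4 genes higher and 4 lower of 33 (beside 12.8% and 14.9% of all genes) and a median of 0.11. Of the 23 genes that were higher in smeb control, 2 were higher, 2 lower and 19 not called in salt. AT4G39675 turned from higher to lower (-1.42, limma adjusted p = 0.000641), with 5.59 and 5.83 FPKM in Col-0 salt and 0.991 to 2.41 in smeb salt. PHI-1 (AT1G35140) was higher in both conditions, by 0.83 in salt (adjusted p = 0.00438). Salt lowered 13 of the 33 genes and raised 4 in Col-0, lowered 27 and raised 4 in smeb-1, and lowered 23 and raised 5 in smeb-2. Over all genes, salt lowered 27.7% and raised 34.1% in Col-0, lowered 26.8% and raised 31% in smeb-1, and lowered 27.7% and raised 32% in smeb-2. AT2G34390, AT5G10040 and AT3G29970 passed the filter through smeb control alone, which favours a fall in smeb and a negative difference in salt response. The smeb minus Col-0 difference in salt response of the 33 genes was negative past the threshold for 17 and positive for 2, beside 3.78% and 6.18% of all genes. That count was 11 negative without Col-0 control library 1 and 22 without Col-0 salt library 0, and the counts in salt moved to 1 higher and 2 lower without Col-0 salt library 1 and to 5 and 9 without Col-0 salt library 0.

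**Figure D4:**
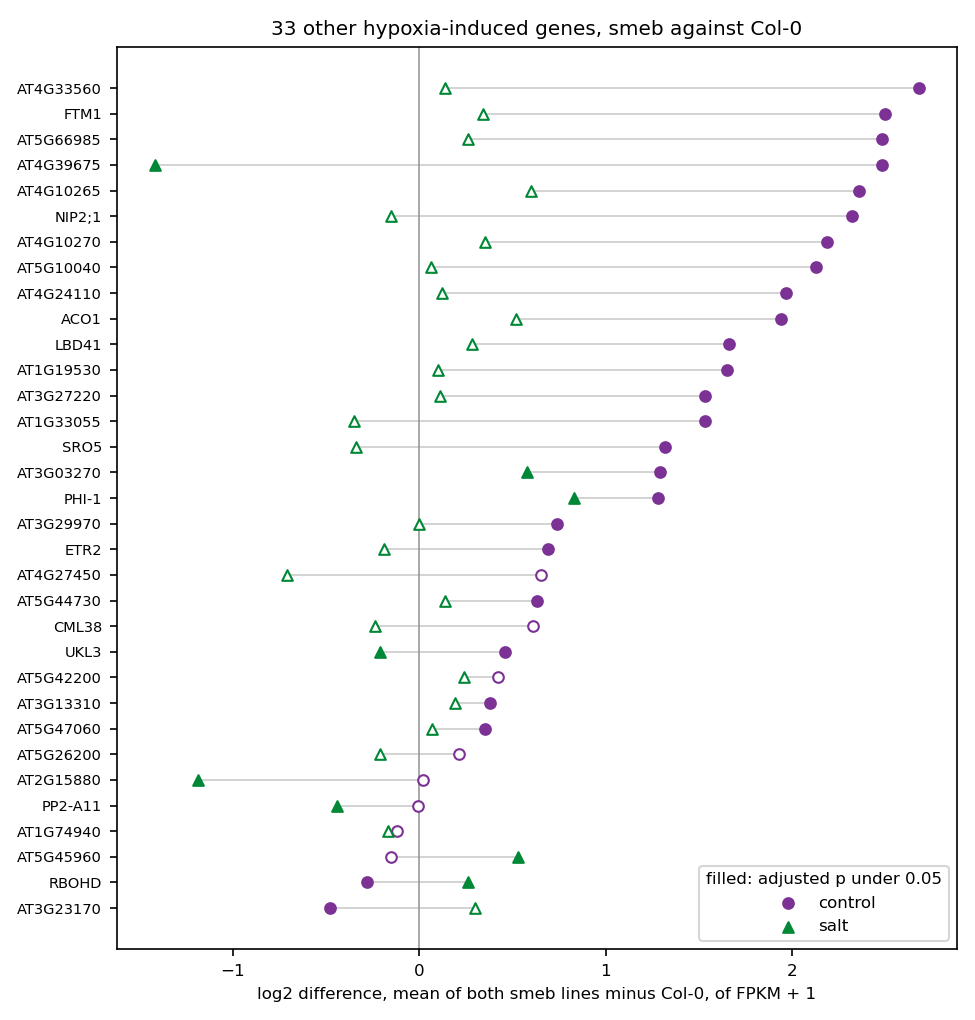
Log2 difference of FPKM + 1 between the mean of both smeb lines and Col-0 for 33 other hypoxia-induced genes, with circles for control, triangles for salt and filled symbols where the adjusted p was under 0.05 (4 smeb against 2 Col-0 libraries in each condition). In control 23 genes are called above 0 and 2 below, and in salt 4 are called above and 4 below, with AT4G39675 at 2.48 in control and -1.42 in salt.

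In the oxygen-sensing list, the 3 genes called in control were regulators that hypoxia itself induces. HRE2, an ERF-VII factor that hypoxia induces, was at 0.915 and 0.261 FPKM in Col-0 control and at 2.99 to 5.23 in smeb control (1.77 ± 0.231, SE, limma adjusted p = 0.000577). HRA1, a trihelix repressor of RAP2.12 activity, was at 2.81 and 2.16 against 5.6 to 9.95 (1.41 ± 0.202, adjusted p = 0.000952). HRE1, a second inducible ERF-VII factor, was at 7.27 and 6.18 against 12.2 to 16.5 (0.99 ± 0.156, adjusted p = 0.00157). These are 3 of 14 genes, with a list median of -0.05, beside 11.6% of all genes called higher. The other 11 genes were not called, among them the constitutive ERF-VII factors RAP2.2, RAP2.12 and RAP2.3. RAP2.2 was at 72.7 and 64.9 in Col-0 control and 64.3 to 68.1 in smeb control, and RAP2.12 at 95.8 and 92 against 88.4 to 93.1. RAP2.3 was at 238 and 217 against 146 to 194, lower in each smeb library though not called. In salt HRE2 stayed higher in smeb (1.36, adjusted p = 0.00302), at 3.53 and 5.69 in Col-0 and 10.8 to 15 in smeb, and 3 genes were lower, including PRT6 (-0.27, adjusted p = 0.0295), the ubiquitin ligase of the N-degron pathway, whose call was lost without Col-0 salt library 1 (0.211), smeb-1 salt library 1 (0.0774) or smeb-2 salt library 0 (0.0794). HRE2 also rose with salt in Col-0 (1.83, adjusted p = 0.000215), and so did RAP2.2 (0.46, adjusted p = 0.000937) and RAP2.12 (0.27, adjusted p = 0.0106). RAP2.12 was among the 3 genes lower in smeb in salt (-0.22, limma adjusted p = 0.0342). HRE1 was at 3.81 and 5.11 FPKM in Col-0 salt and at 2.99 to 4.23 in smeb salt, and HRA1 was at 1.21 and 0.653 against 0.644 to 1.42, so that both overlapped between the groups.

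The metabolic lists are read against 11.6% of all genes higher and 13% lower in smeb control, and 12.8% and 14.9% in salt, and no test set the lists against all genes. Of 12 further fermentation and anaerobic amino acid genes tested, 1 was higher in smeb control, GAD1 (0.43, limma adjusted p = 0.00174), a glutamate decarboxylase, and 3 were lower, including GAD4 (-0.80, adjusted p = 0.000247) and the aldehyde dehydrogenase gene ALDH2C4 (-0.25, adjusted p = 0.0237). The ALDH2C4 call was lost without either Col-0 control library (0.14 and 0.111), smeb-1 control library 0 (0.0688) or either smeb-2 control library (0.0531 and 0.0633). In salt 5 of the 12 were called in smeb, all lower, led by POP2 (-0.58, adjusted p = 0.00154), the GABA transaminase, and GAD2 (-0.32, adjusted p = 0.0027). Among sucrose-cleaving genes, SUS6 was the 1 of 5 called in smeb control (0.56, adjusted p = 0.00188), and SUS3 rose with salt in Col-0 (2.28, adjusted p = 2.87e-08), as SUS1 did. Of 26 genes of cytosolic glycolysis, 7 were higher and 1 lower in smeb control, with a median of 0.11. The phosphoglycerate kinase gene PGK (AT1G79550, 0.39, adjusted p = 0.000491), the phosphoglycerate mutase gene IPGAM2 (0.39, adjusted p = 0.000818) and the aldolase gene FBA8 (0.33, adjusted p = 0.00222) had the smallest p-values, and PFK6, named after its value was seen, had the largest difference of the 7 (0.44, adjusted p = 0.00563). The smallest control difference among the 10 fermentation and hypoxia genes was that of LDH1 at 0.52, but those genes were chosen by their control values, so the sizes are not comparable. Of the 9 haemoglobin and thioredoxin relatives, 2 were called in smeb control, both lower, TRXh3 (-0.24, adjusted p = 0.00722) and TH9 (-0.19, adjusted p = 0.0489). Both calls were lost under quantile normalization, that of TH9 also under median-of-ratios scaling and without 9 of the 12 libraries taken singly (adjusted p up to 0.284, without Col-0 control library 1), and that of TRXh3 also without Col-0 control library 0 (0.0712).

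Across the 12 libraries the 10 genes followed each other to different degrees. The correlation of log2(FPKM + 1) of each gene with the mean profile of the other 9 was 0.95 for PDC1, 0.80 for SUS4, 0.79 for PCO2, 0.77 for AT2G17850, 0.74 for HB1 and 0.73 for PCO1. It was 0.47 for ADH1, 0.47 for TH8, 0.37 for LDH1 and -0.11 for SUS1. The 12 points share the 6 groups, so these values describe the group pattern. Outside the 10, the genes most like their mean profile over 12 libraries were HCAR (AT1G04620, r = 0.972), the chlorophyll-cycle gene for hydroxymethyl chlorophyll a reductase, AT4G24110 (0.964), AT5G20060 (0.953), PGK (0.936) and cpHsc70-1 (AT4G24280, 0.932), a chloroplast chaperone. AT4G24110, which is on the hypoxia-induced list, was at a mean FPKM of 1.88 in Col-0 control, 10.6 and 10.3 in smeb-1 and smeb-2 control, and 3.34, 3.43 and 3.75 in Col-0, smeb-1 and smeb-2 salt. HCAR had a far smaller range, at 25.1 in Col-0 control, 33.2 and 32.1 in smeb control and 27.1 to 28.5 in salt. Likeness here is of shape and not of size.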

How the data were processed

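RNA-seq of whole Arabidopsis seedlings was analysed as the authors deposited it, in 1 table of FPKM values per gene and library. Per the submitters' processing notes, Trimmomatic 0.32, TopHat2 2.0.13 and the TAIR10 genome were used. Neither the tool that made the FPKM values nor the strand setting is named in the labels. The authors also deposited splicing tables with false discovery rates, p-values adjusted by the authors. Those read here compare smeb with salt against Col-0, and Col-0 with salt against Col-0 control. They list 0 of the 10 genes, but hold only 344 events with a position, beside 33559 genes in the FPKM data. None of those read compares untreated smeb with untreated Col-0. Library columns were matched to groups by name, and their final digit matches no replicate number in the labels.

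Genes that reached an FPKM of 1 in 2 or more of the 12 libraries (20251 of 33559) were fitted with limma 3.58.1 (R 4.3.3) as 6 group means of log2(FPKM + 1), with a trend in the prior variance and Benjamini-Hochberg adjustment over all genes tested. Differences are on that scale, which understates changes of low genes. Calls were made at an adjusted p under 0.05. The procedure was also run on simulated data with each gene drawn independently. That setting cannot show how it handles shifts that genes share within a library. Depth per library is known only as the relative spacing of low values, so no counting interval is given. A 0 is given as listed, because some library lists 0 for 11 genes whose median FPKM reaches 5. Alternatives were a pseudocount of 0.1, no filter, 2 other scalings, fits of only the groups compared, a block for the final digit of the column names, and each library left out.

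The 10 genes and all lists were chosen with earlier results of these data known. Named beside them are up to 3 called genes of each list with the smallest p in control, up to 2 in salt, up to 2 for the difference in salt response, up to 2 for salt in Col-0, family relatives, and the 5 genes most like the mean profile. Positions and promoters (250 bases before to 50 after the start) come from the RefSeq annotation of TAIR10.1, which was checked against the positions in the splicing tables, where 335 of 344 events lie within 1000 bases of their gene. Of the table's identifiers, 32817 matched RefSeq. Python 3 and pandas were used for summaries.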

Additional observations from a re-analysis of the deposited data

Results flagged for a closer look

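ADH1 responded to salt in opposite directions in Col-0 and smeb-1, with every salt library above every control library in Col-0 and below in smeb-1. The log2 change was 3.25 in Col-0 and -0.75 in smeb-1, a difference of -3.99. It was not tested because the control libraries entered the choice of the gene. The opposite direction was not seen in smeb-2, at 0.04, where the salt libraries (61.7 and 67.6 FPKM) lay between the control libraries (45.6 and 86.4).

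For 8 further genes, the salt response of smeb differed from that of Col-0 by limma's test of the difference, adjusted over all genes. The lists that hold these genes were written with earlier results of these data known. The test rests on the same control libraries as the comparison of smeb with Col-0 in control. Among the hypoxia-inducible regulators the smeb minus Col-0 difference was -1.33 for HRE1 and -1.28 for HRA1, the latter with an adjusted p of 0.0212 that became 0.0565 with a pseudocount of 0.1 and 0.105 without Col-0 control library 1. Among the hypoxia-induced genes it was -3.90 for AT4G39675 and -1.66 for SRO5, which rose with salt in Col-0 from 2.03 and 2.23 to 12.7 and 17.8 FPKM and was already at 4.78 to 8.67 in smeb control. In the GABA route it was 0.96 for GAD4 and -0.78 for POP2. In glycolysis it was 1.24 for the aldolase gene FBA5, which was at 309 and 299 FPKM in Col-0 control and 85.3 and 72.4 in Col-0 salt but at 154 to 210 in smeb salt, and -0.42 for PGK.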

How the results depend on the processing

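Of 2250 recomputed values of single genes, 2087 kept their direction and side of the threshold, 100 lost a call, 23 gained one and 40 changed sign. This tally includes comparisons of the 10 genes that are described above with no test, and their calls are not read as results. The scalings moved the median of all genes by at most 0.08 (log2). With 2 libraries a group, precision is set by that number, and counting error cannot be given without counts. For smeb against Col-0 in salt, 4 of the 10 genes were called, 2 with no filter, and 1 to 5 with a library left out. For smeb-1, 6 were called, 2 with no filter, 0 with only the groups compared, and 2 to 7 with a library left out. For smeb-2, 1 was called, 0 with only the groups compared, 2 under quantile normalization, and 0 to 3 with a library left out. Fits of only the groups compared have fewer libraries behind their spread. Without Col-0 salt library 1 the first 2 counts were lowest. Of the pathway genes, 27 were called in salt, 8 with only the groups compared and 15 to 42 with a library left out. For the difference in salt response it was 31, and 17 to 46 with a library left out. The cause of these shifts was not otherwise tested.

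The results whose sign changed were not called as reported. Among them, TH8 was at -0.78 for smeb and -0.54 for smeb-1 against Col-0 in salt without Col-0 salt library 0. The ADH1 salt response in smeb-2, described with no test, was at 0.49 without smeb-2 control library 1. With a pseudocount of 0.1, AT2G17850 was at -0.04 for smeb-1 against Col-0 in salt and at 0.19 for smeb-2 against smeb-1 in salt. Median-of-ratios scaling put the TH8 salt response at -0.03 in smeb-1 and -0.03 in smeb-2, and quantile normalization at -0.07 and -0.11, with ADH1 in smeb-2 at -0.02. With 1 library left out at a time, the difference of smeb from Col-0 in salt ran from -0.38 to 0.23 for HB1, -0.78 to 0.10 for TH8 and -0.14 to 0.37 for AT2G17850. For smeb-1 it ran from -0.55 to 0.66 for HB1, -0.54 to 0.34 for TH8 and -0.33 to 0.70 for AT2G17850, and for smeb-2 from -0.45 to 0.03 for HB1 and -0.07 to 0.16 for AT2G17850. Between the smeb lines in salt it ran from -0.51 to 0.03 for PDC1, -0.87 to 0.34 for HB1, -0.77 to 0.04 for PCO1, -0.69 to 0.16 for PCO2 and -0.66 to 0.37 for AT2G17850. Between them in control it ran from -0.81 to 0.06 for PDC1, -0.79 to 0.12 for ADH1, -0.04 to 0.13 for LDH1, -0.75 to 0.15 for SUS4, -0.91 to 0.02 for HB1, -0.56 to 0.06 for PCO1, -0.48 to 0.11 for PCO2 and -0.49 to 0.03 for AT2G17850. The salt response ran from -0.05 to 0.14 for PDC1 in Col-0, from -0.18 to 0.19 for TH8 in smeb-1, from -0.03 to 0.04 for TH8 in smeb-2 and from -0.41 to 0.49 for ADH1 in smeb-2.

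For the digit of the column names, the deviations of same-digit libraries correlated between -0.13 and 0.11, over 0.1 in 2 of 15 pairs of groups. These values cannot show whether libraries of the same digit were handled together. With that digit as a block, 4 of the 10 genes were called for smeb against Col-0 in salt, with SUS1 gained (adjusted p = 0.0433) and SUS4 lost (0.0525), and PCO1 was lost for smeb-1 (0.0545). The difference in salt response then had 33 calls among the pathway genes.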
